A study of Homo sapiens with 2 samples.

Results

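Outer radial glia-like cells were sought here among whole cells of human cerebral organoids by the transcripts that each cell contained. They were chosen by 12 genes. A cell was taken when it had more than 5000 transcripts, at most 20% of them mitochondrial, at least 3 of the 6 outer radial glia markers HOPX, PTPRZ1, TNC, FAM107A, LIFR and MOXD1, at least 2 of the 4 radial glia genes SLC1A3, PAX6, SOX2 and GLI3, and no transcript of NEUROD6 or GAD1, which mark excitatory and inhibitory neurons. This rule selected 461 cells, 6.80% of the 6779 cells above the depth limit. They were 15.8% (95% exact binomial interval 14.5 to 17.2%) of the 2915 cells that met the last 2 conditions, here called the radial glia class. The comparison was made with the 2020 cells of that class without any transcript of HOPX, TNC, FAM107A or MOXD1, and the 434 remaining cells of the class belong to neither group.

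Radial glia are the stem cells of the developing cerebral cortex. Ventricular radial glia line the ventricle, whereas outer radial glia have left this lining, keep a long fibre to the outer surface and divide in the outer subventricular zone, where they supply many of the upper-layer neurons of the human cortex. They are known for LIF receptor and STAT3 signalling, for an extracellular matrix around TNC and the receptor PTPRZ1, and for sharing several genes with later astrocytes. Fetal cortex gains them in mid-gestation.

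The organoids came from H9 human embryonic stem cells and were made without patterning molecules from a commercial kit. One library of cells pooled unperturbed organoids (CO) collected at days 45, 55 and 70, organoids dissociated to single cells at day 45 and reaggregated (DISS), collected at days 48, 55 and 70, and organoids constrained in 3% agarose from day 13 (CONS), collected at day 55. A second library held nuclei, which by the study's methods came from whole CO frozen at day 45 and from CO dissociated at day 45, while its treatment label also names an embedded group. No label ties a barcode to a condition, a day or an organoid, so each library was 1 sample, conditions were not compared, and no p-values are given. All values rest on 1 stem cell line.

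RNA was barcoded in rounds of wells (split-seq), and the cells were sequenced as 8 sub-libraries, which are technical divisions of the same pool. The library of cells contained 254967545 transcripts of 62704 genes. Levels are given as counts per 10000, the counts of a gene summed over a group of cells for every 10000 transcripts of that group, and intervals are 95% exact intervals that cover counting error only. The same combination of wells occurred in another sub-library for 1104 of the 6779 cells and 70 of the 461 selected cells, and leaving them out kept 391 selected cells. Scrublet marked 0 doublets, so the doublet call did not work, and 16 selected cells had more than 50000 transcripts.

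The name outer radial glia was not settled by these markers. HOPX, a small homeodomain protein and a defining outer radial glia marker, was detected in 56 of the selected cells (12.1%), beside 2.54% of the class, a difference that the rule favours. In the other 405 no transcript of it was read, which at 81 counts over all 461 cells does not show that they lack it. Most cells passed by other markers, and 319 of the 461 cells passed with PTPRZ1, LIFR and exactly 1 of the other 4 markers. The most frequent sets were PTPRZ1, FAM107A and LIFR in 138 cells (29.9%) and PTPRZ1, TNC and LIFR in 131 cells (28.4%). At least 2 of the 4 rarer markers were found in 142 cells and at least 3 in 16, and no cell of the class had all 6. The cells are therefore called marker-positive cells below.

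PTPRZ1, a receptor phosphatase that binds pleiotrophin, separated little. It was detected in 99.1% of the marker-positive cells, 87.7% of the comparison cells and 91.4% of 952 neuron-like cells, which were defined by at least 3 of 7 neuronal genes and at most 1 radial glia gene. The median number of transcripts was 14578 in marker-positive, 8746 in comparison and 8510 in neuron-like cells. The level of PTPRZ1 was 6.65 counts per 10000 in marker-positive cells, 5.80 in comparison cells, 8.60 in neuron-like cells and 6.92 in barcodes of 10 to 100 transcripts, which stand for free RNA. The level of PTPRZ1 in marker-positive cells thus lay below those of neuron-like cells and of free RNA.

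LIFR, the receptor of leukaemia inhibitory factor, was detected in 90.0% of marker-positive, 40.4% of comparison and 27.2% of neuron-like cells, and its level was 1.54 against 0.841 counts per 10000 in the comparison cells. LIFR is a gene of the rule, so this difference is a description. After each cell was thinned to 5000 transcripts, TNC was found in 30.2% of marker-positive and 2.00% of neuron-like cells. FAM107A, an actin-binding protein, was found in 27.1% against 1.47%, MOXD1, a monooxygenase-like protein, in 9.54% against 0.945%, and HOPX in 5.86% against 0.315%. Free RNA held 0.838 counts per 10000 of LIFR, 0.247 of TNC, 0.172 of FAM107A, 0.0556 of MOXD1 and 0.0332 of HOPX, beside 0.882, 0.278, 0.256, 0.0466 and 0.0283 in the whole radial glia class and 0.501, 0.0344, 0.0243, 0.0294 and 0.00607 in neuron-like cells. The class thus lay near or below free RNA for LIFR, TNC, MOXD1 and HOPX. The part of free RNA in single transcripts of the marker genes was not tested. TNC, FAM107A, MOXD1 and HOPX were more frequent than in neuron-like cells, a difference that the rule favours, and by the rule they were absent from the comparison cells.

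**Figure D1:**
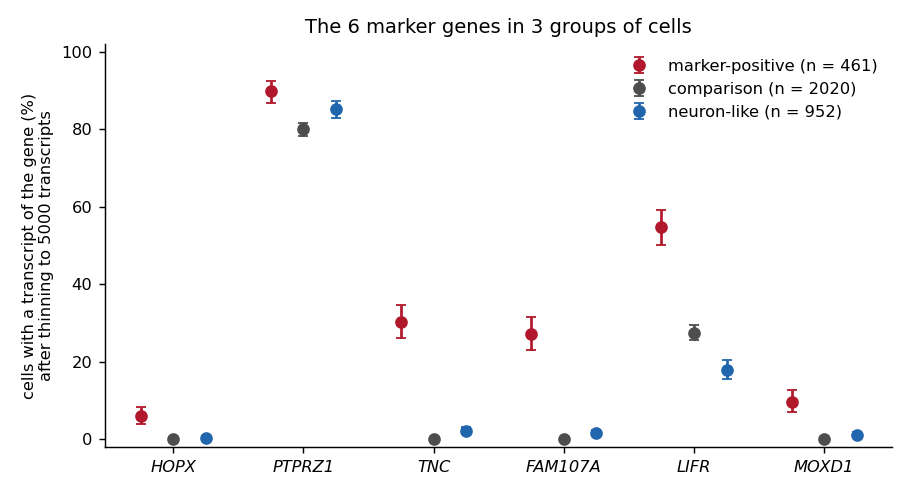
Share of cells (%, vertical axis) with at least 1 transcript of each of the 6 marker genes (horizontal axis) after thinning every cell to 5000 transcripts. Points are 461 marker-positive, 2020 comparison and 952 neuron-like cells with 95% exact intervals. PTPRZ1 lies at 80.0% or above in all 3 groups, while HOPX stays at 5.86% of marker-positive cells.

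Across the 8 sub-libraries, TNC, a matrix glycoprotein, ranged in marker-positive cells from 0.369 over a median of 0.831 to 1.17 counts per 10000. FAM107A ranged from 0.409 over 0.639 to 0.842, and HOPX from 0.0498 over 0.101 to 0.145. Each sub-library held between 38 and 73 marker-positive cells, 12.9 to 19.3% of its radial glia class. By genome position (GRCh38), TNC lies at chr9:115019575-115118207 on the minus strand, FAM107A at chr3:58564117-58627610 on the minus strand and HOPX at chr4:56647989-56681877 on the minus strand. LIFR lies at chr5:38474668-38608354 and MOXD1 at chr6:132296055-132401475, both on the minus strand, and PTPRZ1 at chr7:121873089-122062036 on the plus strand. All are protein-coding genes, and counts were taken over whole genes.

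Membership followed the number of transcripts read from a cell. Marker-positive cells were 7.23% of the class between 5000 and 7500 transcripts, 11.3% from 7500 to 10000, 15.6% from 10000 to 15000, 27.1% from 15000 to 25000 and 40.4% above 25000. When each cell was thinned to 5000 transcripts before the rule was applied, the share was 6.45% (210 of 3255 cells) and showed no such order: 5.95, 7.10, 5.78, 6.19 and 7.82% in the same intervals. Of these 210 cells, 166 (79.0%) were among the 461, and 36.0% of the 461 kept their place. The median mitochondrial share was 2.92% in marker-positive and 2.44% in comparison cells, and the number of genes at equal depth was 2828 against 2767.

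**Figure D2:**
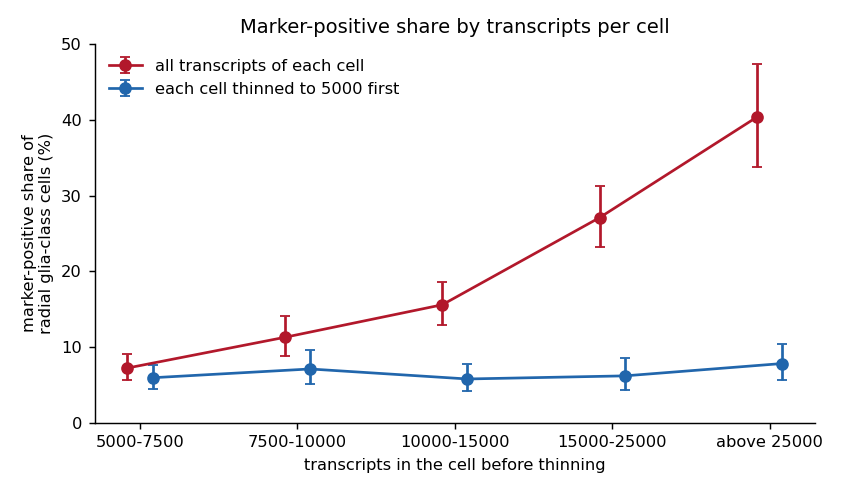
Marker-positive cells as a share of the radial glia class (%, vertical axis) by the number of transcripts in the cell before thinning (horizontal axis), with 95% exact intervals. With all transcripts the share goes from 7.23 to 40.4%, and with each cell thinned to 5000 transcripts first it stays between 5.78 and 7.82%. After thinning the class was defined anew and holds other cells too.

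At the limit of the rule, the 365 cells with exactly 3 markers had TNC in 45.2%, FAM107A in 48.2%, LIFR in 88.5% and HOPX in 5.48% of cells. The 1090 cells with exactly 2 markers had them in 11.1, 15.5, 71.7 and 1.65%, at a median depth of 10591.5 against 13745 transcripts. These groups were split by the number of these same markers, so the higher shares are favoured by construction.

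The 6 markers form 15 pairs. They were read in the 3255 cells of the radial glia class at 5000 transcripts, which were not chosen by these markers. Some of these cells had NEUROD6 or GAD1 before thinning. The second gene was more frequent in cells with the first than in cells without it for 3 pairs and less frequent for 1. The intervals of these pairs did not overlap. The intervals overlapped for 11 pairs. TNC was found in 13.6% (5.17 to 27.4%) of 44 HOPX-positive cells and in 8.38% (7.44 to 9.39%) of HOPX-negative cells. Their intervals overlap. FAM107A was found in 10.9% (7.48 to 15.2%) of TNC-positive and 8.32% (7.35 to 9.37%) of TNC-negative cells, also with overlapping intervals. The more frequent pairs were PTPRZ1 with LIFR, TNC with LIFR and PTPRZ1 with TNC. LIFR was found in 31.5% of cells with PTPRZ1 and 20.8% of cells without it, and in 37.1% (31.4 to 43.1%) of TNC-positive and 29.1% (27.4 to 30.7%) of TNC-negative cells. TNC was found in 9.01% (7.96 to 10.1%) of cells with PTPRZ1 and in 5.52% (3.73 to 7.84%) of cells without it. PTPRZ1 and FAM107A went the other way: FAM107A was found in 7.55% (6.58 to 8.60%) of cells with PTPRZ1 and in 13.7% (10.9 to 17.0%) of cells without it.

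Among the marker-positive cells, those with TNC and those with FAM107A differed. There were 158 cells with TNC and no FAM107A, 178 with FAM107A and no TNC, 72 with both and 53 with neither. The median depth of the first 2 sets was near the same, at 13745 and 14717 transcripts. This division was made after values had been seen, and it is described without a test. The sets came from different wells in part: the wells of row A held 79 TNC-only and 38 FAM107A-only cells, and wells D9 to D12 held 33 and 75. Of 9462 genes tested, 1049 (11.1%) were past 1.5-fold higher in FAM107A-only cells and 677 (7.15%) in TNC-only cells. FAM107A-only cells together had more transcripts of choroid plexus, the secretory epithelium of the ventricles, and of cortical hem, the signalling centre beside it, whereas TNC-only cells had more transcripts of G2/M genes. In an alternative added after seeing the data, both sets were weighted to the same 11 wells with at least 3 cells of each (123 FAM107A-only and 83 TNC-only cells). The sums were then 76.8 against 16.0 counts per 10000 for choroid plexus, 10.8 against 4.42 for hem and 14.1 against 35.5 for G2/M genes.

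Genes that bear on the names of these cells were divided less clearly. The other outer radial glia genes summed to 7.09 counts per 10000 in FAM107A-only cells (5.57 to 7.97 over sub-libraries). In TNC-only cells they summed to 9.41 (7.06 to 11.6), with overlap. Of 7 genes tested, 2 were past 1.5-fold in FAM107A-only and 1 in TNC-only cells. The median log2 ratio, at 0.18, leaned to FAM107A-only cells. However, those 2 genes met the count minimum for testing through FAM107A-only cells, ITGB5 with 101 counts against 20 and EDNRB with 124 against 39. The count of genes and the lean of the median are thus favoured by that minimum. In nuclei the sums of the 2 sub-libraries were 6.18 and 7.29 in FAM107A-only and 10.7 and 11.7 in TNC-only nuclei. Both genes tested were past 1.5-fold in TNC-only nuclei. Of the list, LRRC3B alone stood at 2.42 in FAM107A-only and 4.70 in TNC-only cells, and at 2.75 and 5.55 in nuclei. The ventricular radial glia list summed to 8.65 in FAM107A-only and 7.23 in TNC-only cells, higher in 10 of 11 wells but with overlap between sub-libraries. In nuclei it summed to 9.86 and 7.77. The astroglia sum was 4.39 against 2.18 in cells, with 3 of 6 genes higher in FAM107A-only and 1 in TNC-only cells, and 1.76 against 1.67 in nuclei. Some of these 3 genes also met the count minimum through FAM107A-only cells, as APOE did with 103 counts against 13.

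The 10 genes of the choroid plexus list summed in FAM107A-only cells to 46.9 counts per 10000 in the lowest, 86.2 in the median and 110.0 in the highest of 8 sub-libraries. In TNC-only cells they summed to 4.69, 6.03 and 19.7, so that no sub-library of one set overlapped with the other. The pooled sums were 82.5 (81.6 to 83.5) against 7.59 (7.26 to 7.93), beside 29.2 in the comparison cells, 4.59 in neuron-like cells and 30.3 in free RNA. All 5 genes of this list with at least 100 counts over both sets were past 1.5-fold in FAM107A-only cells. Some reached that minimum through these cells, as CLIC6 did with 892 counts against 34 and OTX2 with 357 against 48. HTR2C, a serotonin receptor abundant in choroid plexus, stood at 48.7 against 2.48 counts per 10000, TRPM3, a cation channel, at 17.5 against 2.46, and TTR, the thyroid hormone carrier of cerebrospinal fluid, at 12.2 against 2.21.

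These sums were carried by a part of the cells. The summed level of the choroid plexus genes within single FAM107A-only cells had a lower quartile of 2.66, a median of 6.63, an upper quartile of 69.9 and a 90th percentile of 204 counts per 10000. In TNC-only cells the same 4 values were 1.84, 3.48, 7.04 and 18.7. The medians of single cells thus lay much closer together than the pooled sums did. FAM107A itself was detected in 41.7% of 1066 choroid plexus-like barcodes at a median depth of 20551 transcripts, and TNC in 17.9%. This reference also had NEUROD6 in many barcodes and is not a clean cell type. The part of choroid plexus-like barcodes and of free RNA in these sums was not tested.

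Cortical hem genes followed the same division. Their sum was 6.64, 10.5 and 14.4 counts per 10000 (lowest, median and highest sub-library) in FAM107A-only cells and 1.85, 2.64 and 4.93 in TNC-only cells, again without overlap. All 7 genes that reached 100 counts over both sets were past 1.5-fold in FAM107A-only cells, but some reached it through these cells, as RSPO1 did with 132 counts against 4. Among the other 5, BMP6 had 34 counts against 50 and WNT5A 31 against 25. RSPO2, a secreted enhancer of WNT signalling, was at 4.19 against 0.594 counts per 10000, LMX1A, a transcription factor of the dorsal midline, at 1.52 against 0.160, and BMP7 at 2.13 against 1.04. Here too a part of the cells carried the sum: in single FAM107A-only cells the median was 3.69, the upper quartile 9.14 and the 90th percentile 32.7 counts per 10000, beside 1.98, 3.43 and 6.17 in TNC-only cells. Both lists were higher in FAM107A-only cells in 9 of 11 wells that held at least 3 cells of each set.

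Genes of the G2/M phase of cell division went the opposite way. All 20 genes of the G2/M list were at least 1.5-fold higher in TNC-only cells, which summed to 31.7 counts per 10000 (lowest 22.6, highest 51.8 of 8 sub-libraries) against 15.1 in FAM107A-only cells (11.4 to 19.3) and 20.0 in the comparison cells. Here as well a part of the cells carried the sums, with single-cell medians of 10.4 and 4.31. The S-phase list differed less: 4 of 17 genes were past 1.5-fold (median log2 ratio −0.34, FAM107A-only over TNC-only), and the sub-libraries, at 10.2 to 18.1 in TNC-only and 4.83 to 11.8 in FAM107A-only cells, overlapped. Of the 15 general radial glia genes, such as LHX2, HES1 and DACH1, only ASPM, a spindle pole protein that also belongs to dividing cells, passed 1.5-fold (3.50 against 1.47), a share of 6.67% that is near the 7.15% over all genes. The sum of the list was 46.1 against 35.2, with DACH1 alone at 22.6 against 15.9, while VIM stood at 3.12 against 3.06 and NOTCH2 at 1.96 against 2.05. The G2/M sum was higher in FAM107A-only cells in 1 of 11 wells.

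Outside the fixed lists, and chosen after their values were seen, CGNL1 and SULF1 were higher in FAM107A-only cells (16.9- and 16.2-fold), and ADAMTS19 and MYO3A in TNC-only cells (3.31- and 3.17-fold), each in 8 of 8 sub-libraries.

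The nuclei, which the division had not used, had pooled sums in the same direction for choroid plexus and hem genes. Of 4086 genes tested, 224 (5.48%) were past 1.5-fold higher in FAM107A-only and 152 (3.72%) in TNC-only nuclei. The 67 FAM107A-only nuclei had a choroid plexus sum of 60.0 counts per 10000 (34.7 and 85.9 in the 2 sub-libraries) and the 84 TNC-only nuclei one of 4.34 (2.21 and 5.41). Single nuclei were much closer, with medians of 1.40 and 0.90, upper quartiles of 9.59 and 1.89 and 90th percentiles of 147 and 3.97, so that a small part of the FAM107A-only nuclei carried the sum. The hem sum was 13.1 against 2.56, with medians of 2.99 and 1.81 in single nuclei. RSPO2 was at 7.30 against 0.502 counts per 10000, and LMX1A at 2.48 against 0.227. The G2/M sum differed less, at 14.7 against 19.8, and 1 of 11 genes tested was past 1.5-fold. Of the 227 genes past 1.5-fold in FAM107A-only cells and tested in nuclei, 198 had the same sign there and 131 were also past 1.5-fold. Of the 329 genes past it in TNC-only cells, 277 had the same sign in nuclei and 46 were past 1.5-fold. Some genes met the count minimum in nuclei through the nuclei where they were high, as LMX1A did with 199 counts in FAM107A-only against 24 in TNC-only nuclei. The shares with the same sign are thus favoured by that minimum. Of 4063 genes tested in both libraries, 1816 had a ratio above 1 in nuclei.

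**Figure D3:**
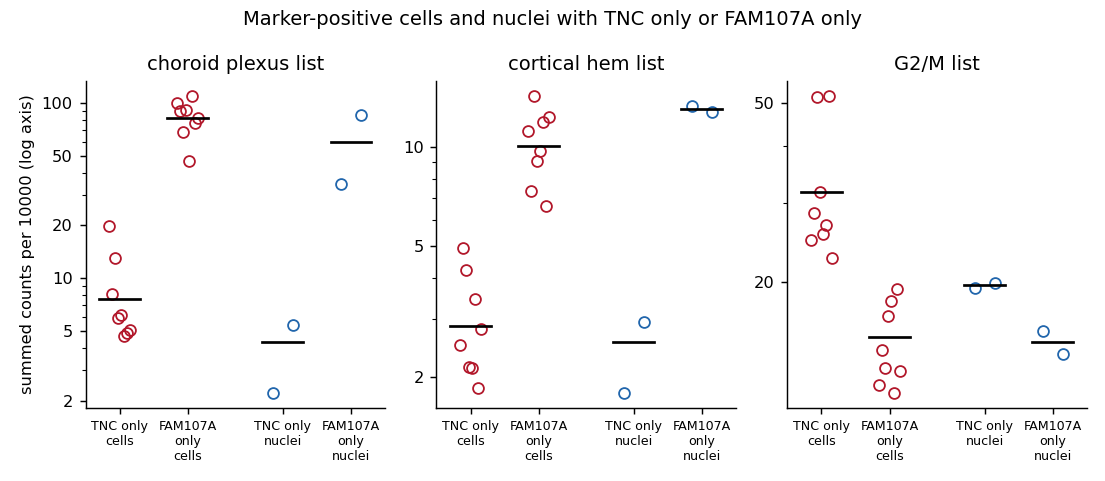
Summed counts per 10000 (log axis) of the choroid plexus, cortical hem and G2/M lists in marker-positive cells and nuclei with TNC but not FAM107A (TNC only) or FAM107A but not TNC (FAM107A only). Circles are sub-libraries (8 for cells, 2 for nuclei) and bars the pooled sums, 7.59 against 82.5 for choroid plexus genes in cells.

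The marker-positive cells as a whole were next set against the comparison cells over 16102 genes with at least 100 counts, without the genes of the rule. Higher levels past 1.5-fold were found for 651 genes (4.04%) and lower levels for 186 (1.16%). Of these, 43 and 22 also met the conditions for being named: the same direction in 8 of 8 sub-libraries, detection in at least 5% of thinned cells, and a difference past 1.5-fold when the comparison cells were weighted to the wells of the marker-positive cells. Those described are from the 15 with the largest difference in each direction.

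BCAN, a brain proteoglycan, was at 0.113 against 0.0363 (3.12-fold), from 95 and 81 counts. In the list of other outer radial glia genes, GFAP, an intermediate filament, was at 0.0740 against 0.0246 (3.00-fold, on 62 and 55 counts), and EDNRB, an endothelin receptor, at 0.245 against 0.113 (2.16-fold). PTN, the ligand of PTPRZ1, was at 2.01 against 1.26 (1.59-fold) and ITGB5, an integrin, at 0.173 against 0.107 (1.62-fold). These were the 4 of 9 tested genes of that list past 1.5-fold, with 0 lower and a median log2 ratio of 0.30, against −0.0046 over all genes tested. GFAP met the count minimum for testing through the marker-positive cells, so the count of genes and the median are favoured by that minimum. STAT3 stood at 0.935 against 0.759 and did not pass 1.5-fold.

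The astroglia list gave 5 of 12 genes higher and 0 lower (median log2 ratio 0.49), among them GJA1, SPARCL1, CD44 and CLU. AQP4, the water channel that defines mature astrocytes, had 1 count in marker-positive and 3 in comparison cells. MLC1 and SLC1A2, a membrane protein and a glutamate transporter of astrocytes, stood at 0.175 against 0.223 and 0.542 against 0.599.

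RSPO3 and RSPO2, secreted WNT enhancers of the hem, were among the high genes. RSPO3 ranged from 0.192 over 0.519 to 0.965 counts per 10000 in marker-positive cells and from 0.119 over 0.173 to 0.221 in the comparison cells (2.78-fold), and RSPO2 from 1.26 over 2.89 to 4.42 and from 0.386 over 1.03 to 1.46 (2.51-fold). The sub-libraries overlapped for both. RSPO3 was higher in 11 and RSPO2 in 8 of 13 wells with at least 10 cells of each group. The whole hem list gave 5 of 10 genes higher and 0 lower, with RSPO1 at 0.203 against 0.0470, and its sum was 6.87 against 3.68 counts per 10000, beside 1.08 in neuron-like cells and 3.93 in free RNA. The 434 cells of the class in neither group had more than both, with a hem sum of 9.41, a choroid plexus sum of 107 and an astroglia sum of 4.33, against 3.29 for astroglia genes in marker-positive cells. Not all marker-positive cells shared the higher hem level. The hem sum was 2.85 in TNC-only, 10.1 in FAM107A-only cells, 7.25 in those with both genes and 5.25 in those with neither gene. TNC-only cells thus lay below the comparison cells, and their RSPO2 level was 0.594, against 4.19 in FAM107A-only cells. The choroid plexus list gave 4 of 9 higher (HTR2C, CLIC6, OTX2 and the keratin gene KRT8), with a sum of 44.5 against 29.2. The sub-libraries overlapped, at 22.8 to 53.1 and 19.9 to 35.1, and the sum was higher in 9 of 13 wells. The median log2 ratio of this list went from 0.48 to 0.11 with comparison cells weighted to depth.

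The other high genes described are CCBE1, a secreted matrix protein (0.449 against 0.124, 3.60-fold), CXCL14, a chemokine (0.993 against 0.296, 3.36-fold), PRTG, a cell surface receptor of early neural tissue (1.58 against 0.692), and LINC00698, FYB2, SMOC2, CPXM2, PRICKLE2, LGI1, SHISA9 and XDH (2.16- to 2.48-fold). These genes were higher in 9 to 12 of the 13 wells, and BCAN was higher in 7 and lower in 4. CXCL14 leaned on 1 sub-library, at 3.04 beside a median of 0.806. It stood at 0.194 in TNC-only, 1.94 in FAM107A-only cells, 0.577 in those with both genes and 0.287 in those with neither gene. When cells were thinned to 5000 transcripts before the rule was applied, its log2 ratio went from 1.75 to −0.088.

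Cells that carry hem genes were more frequent among the marker-positive cells. At least 3 of the 12 hem genes were detected in 179 marker-positive (38.8%) and 378 comparison cells (18.7%). After thinning, at least 2 were detected in 35.1% (30.8 to 39.7%) and 22.7% (20.9 to 24.6%). Without the cells with at least 3, 4 of the 15 high genes stayed past 1.5-fold: BCAN (log2 ratio 1.72), LINC00698 (1.26), XDH (0.87) and RSPO3 (0.81). RSPO3 and RSPO2 are among the hem genes that this filter counts. Without the cells with at least 3 hem genes, the log2 ratios of CXCL14, FYB2, CPXM2, LGI1 and SHISA9 also turned below 0. In that setting the median of the astroglia list went from 0.49 to 0.0080 and of the choroid plexus list from 0.48 to −0.52. That of the hem list, whose genes this filter uses, went from 0.58 to 0.019, while that of the other outer radial glia list was 0.26. The filter used all transcripts of each cell, and marker-positive cells had more of them (median 14578 against 8746). It could thus take out marker-positive cells at a lower hem level than comparison cells. The part of depth in these moves was not tested. When comparison cells were instead weighted to the clusters of the marker-positive cells, 11 of the 15 high genes stayed past 1.5-fold. All 30 named genes kept their sign under that weighting.

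Among the lower genes, DLL1, the Notch ligand of newly committed cells, ranged from 0.184 over 0.365 to 0.550 counts per 10000 in marker-positive and from 0.634 over 0.732 to 1.16 in comparison cells, so that the sub-libraries did not overlap, and it was lower in 13 of 13 wells. HES6, a transcription factor of differentiating progenitors, was at 0.0942 against 0.200. GADD45G, a growth arrest gene, was at 0.0525 against 0.121, and LZTS1, which takes part in the delamination of newborn neurons, at 0.319 against 0.648. KCNQ3, a potassium channel subunit, was at 5.93 against 10.1, without overlap between sub-libraries (5.28 to 7.37 and 8.84 to 11.5) and in 13 of 13 wells. Also lower were PPP1R16B, PTPRQ, PLXNA2, FOXO6, CPLX2, RND1, L1CAM, ELAVL2 and ZNF300, at 0.412 to 0.605 of the comparison level and in 10 to 13 of the wells. When cells were thinned before the rule was applied, 5 of the 15 low genes stayed past 1.5-fold, among them DLL1 (log2 ratio −0.96), HES6 (−0.82) and LZTS1 (−0.68). GADD45G went to −0.43 and KCNQ3 to −0.41, both short of 1.5-fold. L1CAM went to −0.026, and RND1 turned to 0.40.

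Of 7 intermediate progenitor genes tested, 5 were lower and 0 higher (median log2 ratio −0.65). EOMES, which defines these cells, was at 0.0859 against 0.181 counts per 10000, NHLH1 at 0.115 against 0.206, PPP1R17 at 0.0477 against 0.0730 and ELAVL4 at 0.867 against 1.36. Of 14 excitatory neuron genes, 1 was lower and 0 higher (median −0.32), and NEUROD6 was 0 by the rule in both groups. When comparison cells were weighted to the clusters of the marker-positive cells, the medians of these 2 lists became −0.026 and 0.11, and 5 of the 15 low genes stayed past 1.5-fold.

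**Figure D4:**
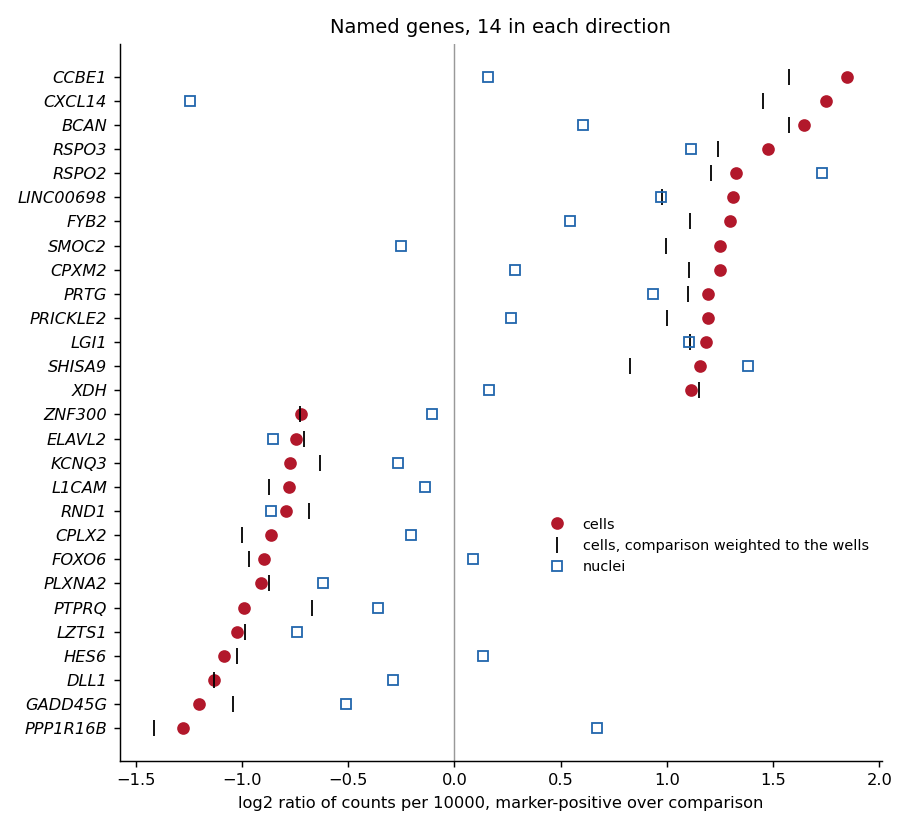
Log2 ratio of counts per 10000, marker-positive over comparison (horizontal axis), for 14 of the 15 named genes in each direction. Filled circles are cells, ticks the same ratio with the comparison cells weighted to the wells, and squares nuclei, where RSPO2 lies at 1.73 and CXCL14 at −1.24.

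Pathways that outer radial glia are known for were read against the 4.04% of all genes higher and 1.16% lower, at which a count of 0 in a list of this size says little. None of 10 LIF and STAT genes tested passed 1.5-fold in either direction (median log2 ratio 0.082), nor did any of 14 mTOR genes (−0.083), 15 apical junction genes (−0.019) or 8 ventricular radial glia genes (0.19). The mTOR sum was 17.7 against 19.3 counts per 10000, lower in 8 of 8 sub-libraries and higher in 1 of 13 wells, although the ranges of the sub-libraries overlapped. Of 17 genes of the TNC and PTPRZ1 matrix, PTN, BCAN and ITGB5 were higher and L1CAM lower (median 0.12). The sum of this list was 18.6 against 16.2 counts per 10000, with sub-libraries apart at 17.0 to 20.5 and 15.8 to 16.6 and 11 of 13 wells higher. It was 18.5 in neuron-like cells and 17.7 in free RNA, so the sum in marker-positive cells lay near both. VCAN, a proteoglycan, was at 7.87 in marker-positive and 6.29 in comparison cells, with sub-libraries at 7.44 to 8.37 and 6.03 to 6.52. Of 14 FGF pathway genes, 5 were higher and 0 lower (median 0.27): ETV5, a transcription factor downstream of FGF receptors (0.477 against 0.270), the feedback inhibitors SPRY1, SPRY2 and SPRY4, and DUSP6, on 66 to 156 counts in each group for the last 4. Of 16 Notch genes, 1 was higher and 1, DLL1, lower.

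Genes of cell division were detected in both groups. At least 3 S-phase genes were detected after thinning in 55.3% (50.6 to 59.9%) of marker-positive, 47.7% (45.5 to 49.9%) of comparison and 7.46% of neuron-like cells, and at least 3 G2/M genes in 50.8% (46.1 to 55.4%), 45.1% (43.0 to 47.3%) and 8.19%. None of the 20 genes of either list passed 1.5-fold. The G2/M sum was 20.5 and 20.0 counts per 10000 in marker-positive and comparison cells, 13.3 in free RNA and 2.22 in neuron-like cells, and no cell is called dividing from these counts. Of 11 temporal identity genes, 11 endoplasmic reticulum stress genes and 19 glycolysis and hypoxia genes, 0 passed in either direction, and the glycolysis sum was 11.7 against 13.8 counts per 10000, lower in 8 of 8 sub-libraries but higher in 5 of 13 wells and, in nuclei, at 11.3 against 10.2. The immediate-early list gave 1 lower gene of 12, the pan-radial glia list 1 higher of 15, the oligodendrocyte precursor list 1 higher and 2 lower of 8, and the inhibitory neuron list 0 of 2.

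The mesenchymal list, which marks another cell type, had the highest median log2 ratio of the 23 lists in cells, at 0.81 (0.42 with comparison cells weighted to wells). Of its 10 genes 5 had enough counts, and 4 were higher: COL1A1 on 62 against 66 counts, COL1A2 on 56 against 90, DCN on 49 against 70, and PDGFRB, a receptor also of pericytes, at 0.335 against 0.191 counts per 10000. COL1A1 and DCN met the count minimum through the marker-positive cells, so the count of genes and the median of this list are favoured by that minimum. The sum was 1.33 (0.954 to 1.93 over sub-libraries) against 1.04 (0.877 to 1.12), beside 1.79 in the 434 cells of neither group and 1.03 in free RNA. In nuclei 0 of 2 genes passed. The part of mesenchymal cells in the higher genes was not tested.

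**Figure D5:**
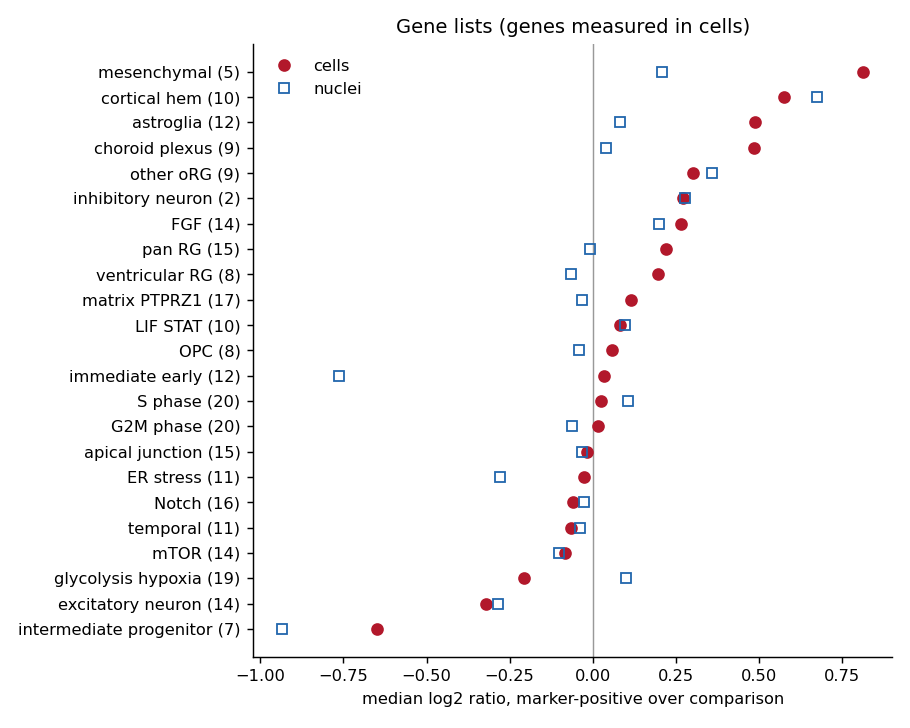
Median log2 ratio, marker-positive over comparison (horizontal axis), of 23 gene lists, with the number of genes tested in cells in brackets. Circles are cells and squares nuclei. Intermediate progenitor genes lie lowest in both (−0.65 and −0.93), and the hem list lies high in both (0.58 and 0.67).

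The cells did not gather in 1 cluster. Clusters were made without the 12 genes of the rule, and are described without names. The 461 cells were found in 18 of 20 clusters, and 24.7% of them lay in the fullest, which also held 28.9% of the comparison cells. The cluster led by RSPO2 and RSPO1 held 13.2% of marker-positive and 4.55% of comparison cells, and within it 27.7% of the radial glia class was marker-positive. By marker, it held 23.6% of FAM107A-only and 2.53% of TNC-only cells. The cluster led by SV2C, GRIK1 and ADAMTS19 held 25.9% of TNC-only and 4.49% of FAM107A-only cells. A cluster led by EBF2, NHLH1 and EOMES held 0.651% of marker-positive and 5.05% of comparison cells.

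No label says what a first-round well held. Marker-positive cells were found in 45 of 48 wells. In the 26 wells with at least 30 cells of the class their share was 4.62% at the lowest, 14.6% at the median and 32.7% at the highest, and 0, 4.72 and 21.9% after thinning. The 5 fullest wells held 190 of the cells (41.2%), beside 34.6% of the class.

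Applied unchanged to the nuclei, the rule selected 205 of 2760 nuclei of the radial glia class (7.43%), at a median depth of 8922 transcripts against 6883 in 2359 comparison nuclei. HOPX was detected in 7.80% of the 205, TNC in 48.3%, FAM107A in 40.0% and LIFR in 97.6%. Of 12956 genes tested, 420 (3.24%) were past 1.5-fold higher and 602 (4.65%) lower. Of the 318 genes higher in marker-positive cells and tested in nuclei, 216 had a ratio above 1 and 90 were past 1.5-fold, and of the 91 lower ones 72 had a ratio below 1 and 27 were past it. Over all 12937 genes tested in both, 6547 lay above 1 in nuclei. The log2 ratio in nuclei was 1.73 for RSPO2, 1.38 for SHISA9 and 1.11 for RSPO3, but −1.24 for CXCL14 and −0.25 for SMOC2. EOMES stood at −1.67. Among the low genes described, HES6 was at 0.14, FOXO6 at 0.088 and PPP1R16B at 0.67, while the others lay below 0. The hem list gave 3 of 6 genes higher (median 0.67), the intermediate progenitor list 5 of 7 lower (−0.93), and the other outer radial glia list 1 of 8 higher (0.36). The astroglia list gave 1 of 6 higher with a median of 0.081, the FGF list 0 of 10 (0.20), the choroid plexus list 1 of 6 (0.040) and the matrix list 1 of 15 (−0.033). The immediate-early list, genes induced by cell handling among other stimuli, gave 8 of 9 lower (−0.76), with a sum of 0.969 against 2.12 counts per 10000. How much of a difference between cells and nuclei comes from condition, day or compartment cannot be told apart.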

How the data were processed

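Split-seq libraries of cells (8 sub-libraries) and nuclei (2) were analysed. The authors demultiplexed reads with demuxFQ, aligned and counted them on GRCh38 with spipe 1.0.3 and deposited the raw counts (transcripts of each gene in each barcode), neither filtered nor normalized and with free RNA left in. Reads were not analysed here. Depth is given as transcripts per cell. Members, gene lists and tests were chosen with earlier results of these data known.

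Counts were read with scipy 1.17.1 and pandas 2.3.3, summed per group and scaled to 10000 transcripts. Genes with at least 100 counts over both groups and a fold past 1.5 were counted. Cells were thinned to 5000 transcripts without replacement (seed 0). Named genes were the 15 with the largest fold in each direction that met the conditions given above, and genes of 23 lists. For 2 of them results are not reported here. Clusters were made in scanpy 1.11.5 (Leiden, igraph 0.11.9), and coordinates come from GENCODE release 44 (GRCh38), matched by Ensembl identifier. The fold step and thinning were tested on simulated data. Well mix, depth mix, other limits, thinning, doublet scores and cluster settings were varied.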

Additional observations from a re-analysis of the deposited data

How the results depend on the processing

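No paired analysis was possible because each library is 1 sample and no test was made. The 461 marker-positive cells became 1551 with at least 2 markers and 96 with at least 4, 210 when cells were thinned to 5000 transcripts before the rule was applied, 148 with at least 2 of HOPX, TNC, FAM107A and MOXD1, and 282 without cells with at least 3 of the 12 cortical hem genes, the last 2 chosen after seeing the data. The 651 higher genes became 245, 1040, 1404, 1339 and 319 in that order, 2315 with at least 20 counts, 169 with at least 500 counts, 1969 past 1.25-fold, 81 past 2-fold and 316 with comparison cells weighted to the clusters of the marker-positive cells. The 186 lower genes became 593 with at least 4 markers, 573 with thinning before the rule, 461 with at least 2 of the 4 rarer markers, 399 without hem-gene cells, 1345 and 33 with at least 20 and 500 counts, 1063 and 29 past 1.25- and 2-fold, 312 with the mean over cells and 282 without cells whose well combination recurs. The fullest cluster held 13.0% of the cells at Leiden resolution 2, against 24.7%. The cause of these moves was not tested, except that counts at other fold limits and count minimums differ by construction.

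Log2 ratios turned for CXCL14 (−0.088) and RND1 (0.40) with thinning before the rule, and without hem-gene cells for CXCL14 (−0.33), FYB2 (−0.15), CPXM2 (−0.034), LGI1 (−0.96) and SHISA9 (−0.15). With thinning before the rule, the comparison group also changed, from 2020 to 2646 cells. List medians turned as follows. The choroid plexus median, 0.48, became −0.52 without hem-gene cells, and the excitatory neuron median, −0.32, became 0.11 with weighting to clusters. The others lay within 0.12 of 0 before. Weighting to wells gave −0.059 for the oligodendrocyte precursor list. Weighting to depth gave −0.15 for it, −0.12 for G2/M, 0.031 for Notch, 0.025 for temporal and 0.057 for stress genes. With at least 2 of the 4 rarer markers, S phase was at −0.078, G2/M at −0.36, apical junction at 0.013 and stress at 0.26. Without hem-gene cells, the oligodendrocyte precursor list was at −0.16, matrix at −0.023, Notch at 0.062 and apical junction at 0.030. Weighting to clusters gave −0.029 for S phase, −0.022 for G2/M, 0.017 for Notch, 0.025 for temporal, 0.024 for stress and −0.054 for immediate-early genes. The 30 named genes kept their sign under weighting to wells, depth or clusters, the mean over cells, the removal of high doublet scores or of the fullest well, and the 4-marker rule. Depth limits HOPX, which had 81 counts in the 461 cells.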
